A study of Mus musculus with 12 samples.

Results

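The caveolins and cavins are the coat proteins of caveolae, and 7 genes of this coat were followed in embryonic mouse fibroblasts that had or had not been turned into adipocytes. They were the caveolins Cav1, Cav2 and Cav3, the cavins Cavin1, Cavin2 and Cavin3, and Ehd2, an ATPase of the caveolar neck. The genes were chosen by symbol in the array's probe annotation, from probe sets assigned to a single gene. All 7 were found, each with 1 probe set, among 19938 genes measured. Expression was read as biotin-labelled total RNA on 12 single-colour arrays, 3 for each of 4 groups. These were differentiated D1D2KO cells, differentiated wild-type (WT) cells, undifferentiated D1D2KO cells and undifferentiated WT cells, all fibroblasts from day 14 embryos labelled C57BL6. D1D2KO was read, from the series title, as a loss of the diacylglycerol acyltransferases DGAT1 and DGAT2, which complete triacylglycerol synthesis. The sources describe the samples as biological replicates but do not say which embryo or culture each came from, nor how the alleles were made. The p-values thus cover the spread among these arrays, part of which may be technical. Differentiation began 2 days after confluence with dexamethasone (1 µM), isobutylmethylxanthine (500 µM), insulin (5 µg/ml) and troglitazone (15 µM, an activator of the adipocyte regulator PPARγ) for 2 to 3 days. Insulin and troglitazone followed for 2 days, and the cells were then kept in DMEM with 10% serum until harvest. Both states list DMEM with 10% serum for growth, and no inducing mixture is named for undifferentiated cells.

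Caveolae are small flask-shaped pits of the plasma membrane that serve as a reserve of membrane and as a site of lipid and receptor traffic. Caveolins insert into the inner leaflet, cavins assemble on them from the cytosol, and EHD2 rings the neck and holds the pit at the surface. Fat cells are among the cells richest in caveolae. Mice and people without caveolin-1 or cavin-1 have too little fat tissue, and caveolin-3 and cavin-4 belong mainly to muscle.

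The labels were checked on the targeted genes and on marker lists. On the log2 signal scale, Dgat1 read 7.75 to 8.26 in differentiated D1D2KO and 9.33 to 9.53 in differentiated WT samples, and Dgat2 read 8.37 to 8.66 and 9.86 to 10.53. Before differentiation Dgat1 read 5.56 to 5.66 in D1D2KO and 6.93 to 6.98 in WT samples, and Dgat2 read 5.44 to 5.51 and 5.94 to 5.98. Neither gene overlapped between the genotypes, nor did 30.9% of all genes after and 39.3% before differentiation. Both genes still rose in D1D2KO cells, from a mean of 5.61 to 8.02 for Dgat1 and 5.48 to 8.55 for Dgat2. In differentiated D1D2KO samples both thus read above the undifferentiated WT samples. The mean log2 signal of 9 adipocyte markers was 11.04 to 11.28 in differentiated D1D2KO samples and 10.77 to 10.91 in differentiated WT samples. In undifferentiated samples it was 6.30 to 6.35 in D1D2KO and 6.51 to 6.61 in WT. All 9 rose in each genotype in the limma test described below, beside 15.4% of all genes in D1D2KO and 14.7% in WT cells. Of the 9, 6 were higher in D1D2KO than in WT adipocytes, beside 6.25% of all genes. The mean of 10 fibroblast markers was 10.46 to 10.58 in differentiated D1D2KO samples and 10.86 to 10.87 in differentiated WT samples, against 11.36 to 11.39 and 11.36 to 11.41 before differentiation, so the differentiated samples still carried strong fibroblast signals. Of the 10, 9 fell in D1D2KO and 8 in WT cells, beside 21.2% and 19.4% of all genes. In D1D2KO adipocytes 5 of the 10 were lower than in WT adipocytes, beside 7.42% of all genes. In such whole-culture RNA, fewer cells of a type and less RNA per cell cannot be told apart.

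The promoter windows of the 4 genes with the largest responses are shown because these genes, described next, moved together. Each runs from 250 bases before to 50 bases after the start of a RefSeq transcript on GRCm38.p6. Cav2 and Cav1 are neighbours on the plus strand of chromosome 6 (chr6:17280935-17281234 and chr6:17306085-17306384). Cavin2 lies on the plus strand of chromosome 1 (chr1:51288876-51289175) and Ehd2 on the minus strand of chromosome 7 (chr7:15967486-15967785). Capitals mark matches to 6 short motifs searched on both strands.
Cav2: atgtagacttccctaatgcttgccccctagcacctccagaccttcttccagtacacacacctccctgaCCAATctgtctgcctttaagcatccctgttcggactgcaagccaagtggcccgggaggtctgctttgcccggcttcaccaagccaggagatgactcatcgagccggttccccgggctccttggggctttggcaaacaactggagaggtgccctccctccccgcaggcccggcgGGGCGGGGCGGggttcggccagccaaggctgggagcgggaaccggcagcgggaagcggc
Cav1: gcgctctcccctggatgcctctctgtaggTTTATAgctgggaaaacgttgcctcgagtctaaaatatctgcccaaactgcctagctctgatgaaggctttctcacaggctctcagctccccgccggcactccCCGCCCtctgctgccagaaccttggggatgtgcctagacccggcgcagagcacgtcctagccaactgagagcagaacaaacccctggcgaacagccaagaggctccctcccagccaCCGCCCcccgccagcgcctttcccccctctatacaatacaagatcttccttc
Cavin2: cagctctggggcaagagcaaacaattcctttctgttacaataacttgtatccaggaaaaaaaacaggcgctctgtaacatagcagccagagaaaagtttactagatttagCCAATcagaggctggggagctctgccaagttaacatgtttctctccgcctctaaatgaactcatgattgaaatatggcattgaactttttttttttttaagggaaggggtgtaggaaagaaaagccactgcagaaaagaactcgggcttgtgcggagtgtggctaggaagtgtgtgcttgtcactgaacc
Ehd2: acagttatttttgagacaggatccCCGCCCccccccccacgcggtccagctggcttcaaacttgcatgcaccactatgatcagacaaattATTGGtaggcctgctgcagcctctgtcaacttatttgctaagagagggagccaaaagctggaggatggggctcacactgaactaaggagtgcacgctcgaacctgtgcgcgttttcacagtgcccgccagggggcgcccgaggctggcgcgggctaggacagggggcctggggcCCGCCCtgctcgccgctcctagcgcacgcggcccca
The GC box GGGCGG, present in 35.7% of 32851 promoter windows, matched at 2 places in each of Cav2, Cav1 and Ehd2, and the 2 matches in Cav2 overlap. The CCAAT box CCAAT (37.4% of windows) matched once in Cav2, Cavin2 and Ehd2, and TATAAA (13.6%) matched on the reverse strand in Cav1, 221 bases before the start. The E-box CACGTG (7.15%), the nuclear receptor core AGGTCA (16.3%) and the C/EBP palindrome TTGCGCAA (0.183%) had no match in these windows. The Cavin2 window had 43.3% G and C, against 64.3% in Cav2, 59.3% in Cav1 and 62.0% in Ehd2, with a median of 52.7% over all windows. A second Cav1 window (chr6:17307390-17307689) matched none of the motifs. The Cavin1 windows held a GC box and a CCAAT box, and the Cav3 window held AGGTCA. Promoters of 6 of the 7 genes were in the table used. A match or its lack describes letters only.

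When cells differentiated, Cav1, Cav2, Cavin1, Cavin2 and Ehd2 rose in both genotypes, while Cav3 and Cavin3 did not pass the test in either. The 5 of 7 called higher in D1D2KO and in WT cells stand beside 15.4% and 14.7% of all genes called higher in these comparisons (limma, Benjamini-Hochberg adjusted p under 0.05 over all genes), while 21.2% and 19.4% were called lower. Samples of the states did not overlap for 7 of 7 genes in D1D2KO cells and 5 of 7 in WT cells, beside 48.1% and 43.9% of all genes. The median difference of the 7 genes, differentiated minus undifferentiated, was 1.31 in D1D2KO and 0.81 in WT cells on the log2 scale, and that of all genes was 0.0062 and 0.015. The adipocyte markers rose in the same samples, their summed linear signal being 23363 to 26898 in differentiated and 1476 to 1514 in undifferentiated D1D2KO samples. In WT samples it was 19313 to 21826 and 1473 to 1579. How far the coat genes follow the share of adipocytes was not tested.

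**Figure D1:**
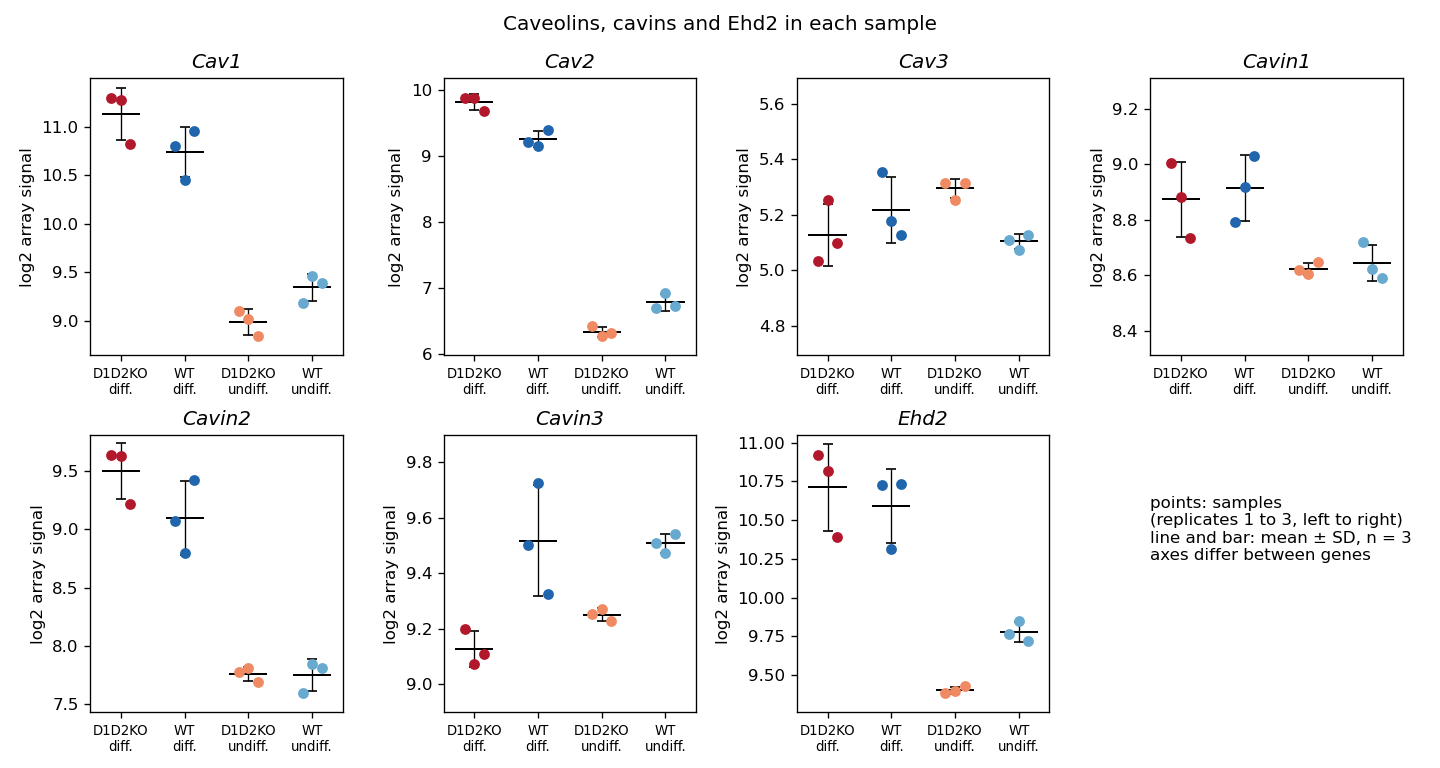
Log2 array signal (vertical axis) of each gene in each of the 12 samples. Points are samples, lines and bars the mean ± SD (n = 3), and the vertical axes differ between genes. Cav2 separates all 4 groups, with 9.68 to 9.89 in differentiated and 6.27 to 6.42 in undifferentiated D1D2KO samples.

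Cav2, which encodes the caveolin that travels to the surface in a complex with caveolin-1, had the largest response. Its log2 signal was 9.89, 9.88 and 9.68 in differentiated D1D2KO samples and 9.22, 9.15 and 9.40 in differentiated WT samples. It was 6.42, 6.27 and 6.32 in undifferentiated D1D2KO samples and 6.70, 6.93 and 6.73 in undifferentiated WT samples. No samples overlapped between neighbouring groups in this order, so D1D2KO cells were the highest of all groups after differentiation and the lowest before it. The rise was 3.48 in D1D2KO cells (SE 0.094, 11.1-fold, limma adjusted p = 2.02e-14). In WT cells it was 2.47 (SE 0.094, 5.54-fold, limma adjusted p = 2.76e-12). In every sample its signal lay above the median gene of the array.

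Cav1, which encodes the principal structural caveolin outside muscle, was 11.30, 11.27 and 10.82 in differentiated D1D2KO samples and 10.80, 10.45 and 10.96 in differentiated WT samples. It was 9.10, 9.02 and 8.84 in undifferentiated D1D2KO samples and 9.19, 9.46 and 9.39 in undifferentiated WT samples. The differentiated genotypes overlapped through D1D2KO replicate 3, the undifferentiated genotypes did not overlap, and the states were far apart. The rise was 2.14 in D1D2KO cells (SE 0.14, 4.41-fold, limma adjusted p = 1.52e-09) and 1.39 in WT cells (SE 0.14, 2.63-fold, limma adjusted p = 4.72e-07).

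Cav3, the muscle caveolin, stayed between 5.03 and 5.35 in all 12 samples, below the median gene of every array and above the lower quartile. Its difference between the states was -0.17 in D1D2KO cells (95% interval -0.34 to 0.0099) and 0.11 in WT cells (-0.063 to 0.29), and no detection calls were at hand to say whether this signal exceeds background. The muscle cavin Cavin4 read 5.18 to 5.79 in D1D2KO and 5.62 to 5.93 in WT samples. Of 10 skeletal and cardiac muscle markers, 4 fell in D1D2KO and 3 in WT cells on differentiation, beside 21.2% and 19.4% of all genes.

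Cavin2, whose product (also called SDPR) binds phosphatidylserine and shapes the membrane, was the cavin with the largest response. Its signal was 9.64, 9.63 and 9.22 in differentiated D1D2KO samples and 9.07, 8.80 and 9.42 in differentiated WT samples. In undifferentiated samples it was 7.78, 7.81 and 7.69 in D1D2KO and 7.59, 7.85 and 7.81 in WT. The states did not overlap, and the genotypes overlapped in both states. It rose by 1.74 in D1D2KO cells (SE 0.14, 3.33-fold, limma adjusted p = 2.16e-08) and by 1.35 in WT cells (SE 0.14, 2.54-fold, limma adjusted p = 7.14e-07).

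Cavin1, the cavin that caveolae cannot form without, moved little. It was 9.01, 8.88 and 8.73 in differentiated and 8.62, 8.60 and 8.65 in undifferentiated D1D2KO samples, and 8.79, 8.92 and 9.03 in differentiated and 8.72, 8.62 and 8.59 in undifferentiated WT samples. States did not overlap within a genotype, and genotypes overlapped in each state. The rise was 0.25 in D1D2KO cells (SE 0.088, 1.19-fold, limma adjusted p = 0.0330) and 0.27 in WT cells (SE 0.088, 1.21-fold, limma adjusted p = 0.0248). With replicate numbers as a block within each genotype, the D1D2KO value missed the threshold (limma adjusted p = 0.0518). By the rule used, these numbers pair the D1D2KO samples but not the WT samples, which that fit also paired. The D1D2KO call also ended without any of undifferentiated replicates 1, 2 or 3 or differentiated replicates 1 or 2, and the WT call without undifferentiated replicates 2 or 3 or differentiated replicate 3 (limma adjusted p up to 0.149 and 0.112).

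Cavin3, which binds protein kinase C delta and takes part in caveola traffic, showed no called response. It was 9.20, 9.07 and 9.11 in differentiated D1D2KO samples, 9.50, 9.72 and 9.32 in differentiated WT samples, 9.25, 9.27 and 9.23 in undifferentiated D1D2KO samples and 9.51, 9.47 and 9.54 in undifferentiated WT samples. All D1D2KO samples thus lay below all WT samples. The difference between the states was -0.12 in D1D2KO cells (95% interval -0.32 to 0.070) and 0.0088 in WT cells (-0.19 to 0.20), so a rise like that of Cav1 or Cavin2 lies outside both intervals.

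Ehd2 was 10.92, 10.82 and 10.39 in differentiated D1D2KO samples and 10.72, 10.31 and 10.73 in differentiated WT samples. It was 9.38, 9.39 and 9.43 in undifferentiated D1D2KO samples and 9.77, 9.85 and 9.72 in undifferentiated WT samples. The states were apart, undifferentiated D1D2KO samples all lay below undifferentiated WT samples, and the differentiated genotypes overlapped. The rise was 1.31 in D1D2KO cells (SE 0.13, 2.48-fold, limma adjusted p = 2.43e-07) and 0.81 in WT cells (SE 0.13, 1.76-fold, limma adjusted p = 7.51e-05).

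In the differentiated groups the strongly responding genes had their lowest sample in common. In differentiated D1D2KO cells replicate 3 was the lowest for Cav1, Cav2, Cavin1, Cavin2 and Ehd2, and in differentiated WT cells replicate 2 was the lowest for Cav1, Cav2, Cavin2 and Ehd2. The adipocyte marker mean was also lowest in these samples, at 11.04 in D1D2KO replicate 3, against 11.28 and 11.26 in the others, and at 10.77 in WT replicate 2, against 10.79 and 10.91. Cavin3 was highest in WT replicate 2. Whether these samples held fewer converted cells was not tested. In undifferentiated WT cells replicate 1 was the lowest for Cav1, Cav2 and Cavin2, and replicate 3 for Ehd2. The adipocyte marker mean was lowest in replicate 1, at 6.51, against 6.56 and 6.61. By summed linear signal the markers were instead lowest in replicate 2, at 1473, against 1495 in replicate 1 and 1579 in replicate 3. In undifferentiated D1D2KO cells the lowest sample was replicate 3 for Cav1 and Cavin2, replicate 2 for Cav2 and replicate 1 for Ehd2. There the adipocyte marker mean was highest in replicate 3, at 6.35, against 6.31 and 6.30. The summed linear signal of the markers was lowest in that replicate, at 1476, against 1510 and 1514.

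The genotypes were then compared within each state. In differentiated cells, Cav2 was higher and Cavin3 lower in D1D2KO than in WT cells, which makes 1 of 7 higher and 1 of 7 lower, beside 6.25% and 7.42% of all genes. Samples of both these genes, 2 of 7, did not overlap between the genotypes, as for 30.9% of all genes. Cav2 averaged 9.82 ± 0.11 in D1D2KO and 9.26 ± 0.13 in WT samples (SD, n = 3 each), a difference of 0.56 (SE 0.094, 1.47-fold, limma adjusted p = 0.00105). Cavin3 averaged 9.13 ± 0.066 in D1D2KO and 9.52 ± 0.20 in WT samples (SD, n = 3 each), a difference of -0.39 (SE 0.092, 76.3% of the WT signal, limma adjusted p = 0.0114). Without WT differentiated replicate 2, the highest Cavin3 sample, that difference was -0.29 and missed the threshold (limma adjusted p = 0.0516), as it did when only the 6 differentiated samples were fitted (0.0594).

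Cav1 and Cavin2 differed by 0.39 (95% interval 0.10 to 0.69) and 0.40 (0.11 to 0.69) in differentiated cells and did not pass (limma adjusted p = 0.0688 and 0.0651). Both passed without D1D2KO differentiated replicate 3 (limma adjusted p = 0.0187 for Cav1 and 0.0270 for Cavin2) or without WT differentiated replicate 3 (0.0384 and 0.0126). Without WT differentiated replicate 2 both differences were 0.25 (limma adjusted p = 0.282 for Cav1 and 0.276 for Cavin2). Ehd2 differed by 0.12 (-0.15 to 0.39), Cavin1 by -0.040 (-0.23 to 0.15) and Cav3 by -0.091 (-0.27 to 0.087). The adipocyte markers, higher in D1D2KO adipocytes by a median of 0.37, moved in the same direction as Cav2, and their part in its difference was not tested.

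In undifferentiated cells Cav2 was lower in D1D2KO samples, the single call among the 7, beside 3.62% of all genes called lower and 4.4% called higher. It averaged 6.34 ± 0.076 in D1D2KO and 6.79 ± 0.13 in WT samples (SD, n = 3 each), a difference of -0.45 (SE 0.094, 73.2% of the WT signal, limma adjusted p = 0.0104). The call ended without WT undifferentiated replicate 2 (-0.38, limma adjusted p = 0.0743) or D1D2KO undifferentiated replicate 3 (-0.44, limma adjusted p = 0.0521). Cav1 (-0.36, 95% interval -0.65 to -0.062), Ehd2 (-0.38, -0.65 to -0.11) and Cavin3 (-0.26, -0.45 to -0.063) did not pass in this fit (limma adjusted p = 0.114, 0.0766 and 0.0889). These 3 passed when only the 6 undifferentiated samples were fitted (limma adjusted p = 0.0391, 0.0102 and 0.0283), and their adjusted p reached 0.351, 0.239 and 0.240 when 1 sample was left out of the full fit. Samples of 5 of the 7 genes did not overlap between the genotypes, among them Cav3, which was higher by 0.19 in D1D2KO cells, and 39.3% of all genes did not overlap. Of the 10 skeletal and cardiac muscle markers 4 were higher and 1 lower in undifferentiated D1D2KO cells. Cavin1 and Cavin2 differed by -0.021 (-0.21 to 0.16) and 0.010 (-0.28 to 0.30).

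Smooth muscle markers, genes of contractile cells that are also rich in caveolae, differed between the genotypes too. All 8 passed the test as lower in D1D2KO in both states, with median log2 differences of -1.84 after and -1.01 before differentiation. Of all genes, 7.42% were called lower after and 3.62% before. Their summed linear signal was 4311 to 4520 in differentiated D1D2KO and 10320 to 11517 in differentiated WT samples, and 8040 to 9199 in undifferentiated D1D2KO and 13518 to 14317 in undifferentiated WT samples. Each of the 8 had a signal above the lower quartile of genes in every array. Cavin3 differed by -0.39 after and -0.26 before differentiation, D1D2KO minus WT, and was called only after. Its difference in response, -0.13, did not pass. In D1D2KO cells Cav2 was lower before differentiation but higher after it. The markers' part in these differences was not tested.

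**Figure D2:**
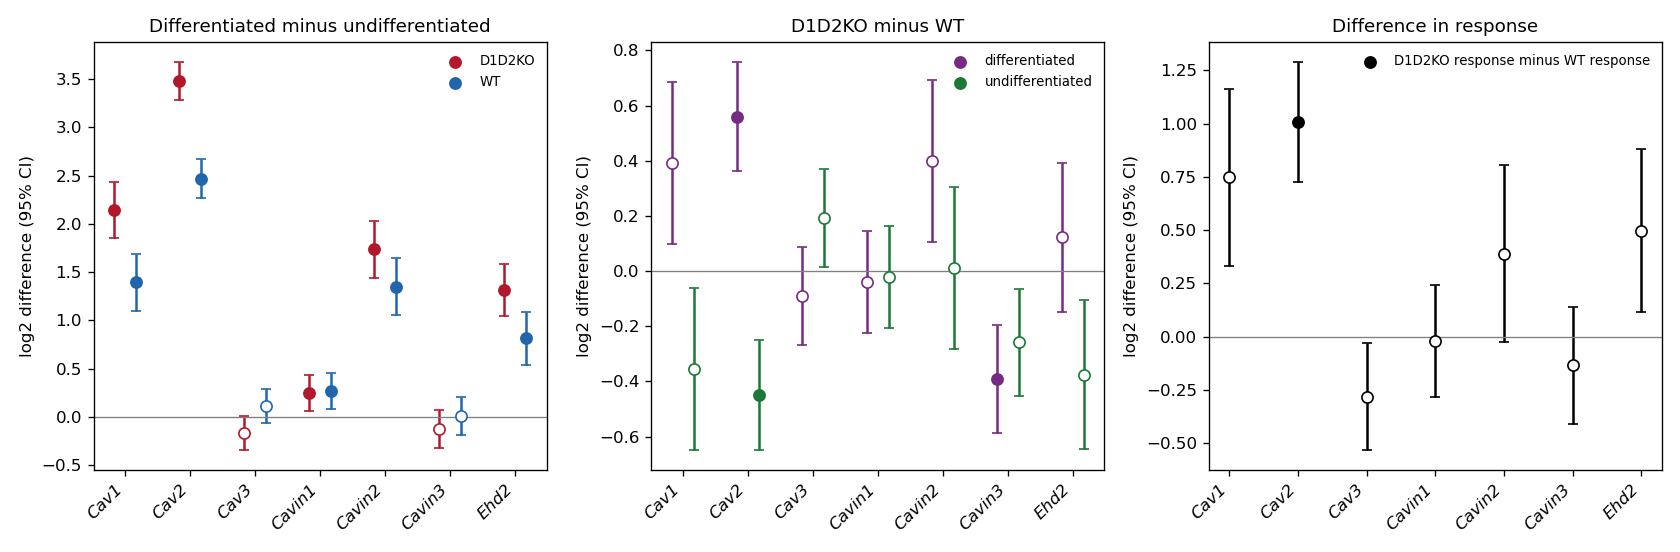
Log2 differences of the 7 genes with 95% intervals from the limma fit, with filled points for calls (adjusted p under 0.05). The left panel gives the differentiation response in D1D2KO and WT cells, the middle panel D1D2KO minus WT in each state and the right panel the D1D2KO response minus the WT response. Cav2 is called in all panels, at 1.01 in the right one, and Cavin3 is called lower only in differentiated cells.

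The difference between the responses was tested in the same fit and shares all its samples with the comparisons above. Cav2 responded more strongly in D1D2KO cells, by 1.01 (SE 0.13, 95% interval 0.73 to 1.29, limma adjusted p = 0.000866), which means a fold change 2.01 times that of WT cells. It was 1 of 7 genes called in the positive direction, beside 0.747% of all genes, with 0.712% called in the negative direction. The value kept its call without each of the 12 samples in turn (0.94 to 1.08, limma adjusted p at most 0.00458). Cav1 had a difference of 0.75 (SE 0.20, 95% interval 0.33 to 1.16, limma adjusted p = 0.0734). It passed without D1D2KO differentiated replicate 3 (0.91, limma adjusted p = 0.0177) or WT differentiated replicate 3 (0.86, limma adjusted p = 0.0357), and was 0.61 without WT differentiated replicate 2 (limma adjusted p = 0.164). Ehd2 had 0.50 (0.12 to 0.88) and Cavin2 0.39 (-0.026 to 0.81), neither of which passed, although Ehd2 did so without D1D2KO differentiated replicate 3 (0.66, limma adjusted p = 0.0399), and had 0.36 without WT differentiated replicate 2 (limma adjusted p = 0.438). Cavin1 (-0.018, -0.28 to 0.24), Cavin3 (-0.13, -0.41 to 0.14) and Cav3 (-0.28, -0.53 to -0.031) did not pass either. Of the 9 adipocyte markers 3 also had a called difference in response, all positive, with a median of 0.53 over the 9.

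The genes next to Cav2 and Cav1 on chromosome 6 were read beside the pair. In annotation order the measured protein-coding genes are Tfec, Tes, Cav2, Cav1, Met and Capza2. Met, which encodes the hepatocyte growth factor receptor, was 8.62, 8.53 and 8.24 in differentiated D1D2KO and 7.56, 7.23 and 7.79 in differentiated WT samples. Before differentiation it was 7.04 to 7.16 in D1D2KO and 7.02 to 7.06 in WT samples. It rose by 1.35 in D1D2KO and 0.48 in WT cells, with a difference in response of 0.87 (SE 0.17, limma adjusted p = 0.0154). Tes, which encodes the focal adhesion protein testin, went the other way, at -1.15 in D1D2KO and -0.38 in WT cells (difference in response -0.77, SE 0.15, limma adjusted p = 0.0165). Tfec, a transcription factor gene of macrophages, fell by 1.16 in D1D2KO and 1.13 in WT cells. Of 7 macrophage markers 6 fell in each genotype, beside 21.2% of all genes in D1D2KO and 19.4% in WT cells. Capza2, a subunit of the actin capping protein, did not pass (-0.060 in D1D2KO and -0.14 in WT cells).

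**Figure D3:**
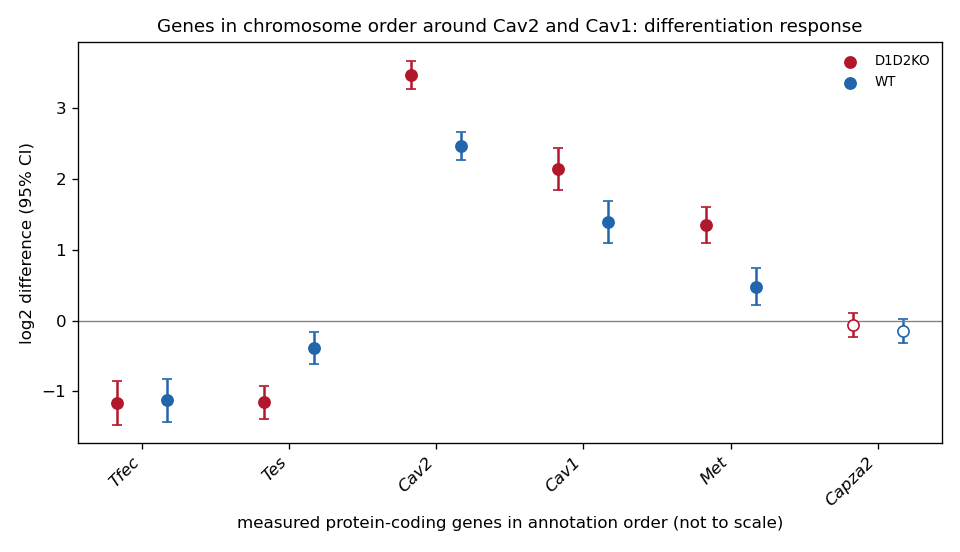
Differentiated minus undifferentiated log2 differences with 95% intervals for 6 genes in their chromosome order, in D1D2KO and WT cells, with filled points for calls. Cav2, Cav1 and Met lie above 0 in both genotypes, Tfec and Tes below, and Capza2 is not called.

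More of the other caveola genes fell than rose, and the same held over all genes. Across all genes, 21.2% were called lower and 15.4% higher in D1D2KO cells, and 19.4% and 14.7% in WT cells. Of 10 accessory genes, 1 rose and 5 fell in D1D2KO cells and 1 rose and 4 fell in WT cells, with medians of -0.32 and -0.15. The gene that rose in each was Ehd1, an EHD ATPase of endosome recycling (0.77 in D1D2KO and 0.65 in WT cells). Ehd4, another member of the EHD family, fell by 1.12 in D1D2KO and 1.09 in WT cells, against the rises of Ehd2. Flna, the actin crosslinker filamin A that tethers caveolae to stress fibres, fell by 1.19 in D1D2KO and 0.84 in WT cells. It was also lower in D1D2KO cells, at -0.73 after and -0.38 before differentiation (limma adjusted p = 9.21e-05 and 0.0224). Ehd3 (-0.42 in D1D2KO and -0.39 in WT cells) and Pacsin2, which encodes a membrane-bending protein of caveolae (-0.54 and -0.38), fell as well. The receptor tyrosine kinase gene Ror1 fell in D1D2KO cells (-0.44) and had -0.20 in WT cells. Cavin4, Pacsin1, Pacsin3 and the dynamin Dnm2 did not pass in either genotype.

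Flotillins mark membrane domains that need no caveolin, and the clathrin coat serves another route of uptake. Of Flot1, Flot2 and Stom, 3 rose in D1D2KO and 2 in WT cells, beside 15.4% and 14.7% of all genes. Stom, which encodes stomatin, rose by 0.83 in D1D2KO and 0.58 in WT cells, Flot1 by 0.25 and 0.24, and Flot2 by 0.23 in D1D2KO cells. Of 9 clathrin coat genes 7 fell in D1D2KO and 3 in WT cells, beside 21.2% and 19.4% of all genes. Their medians were -0.27 and -0.22, led by the heavy chain Cltc at -0.50 in each genotype. In a test of the difference between the responses limma called 0 of the 9, and 1 had an unadjusted p under 0.05.

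**Figure D4:**
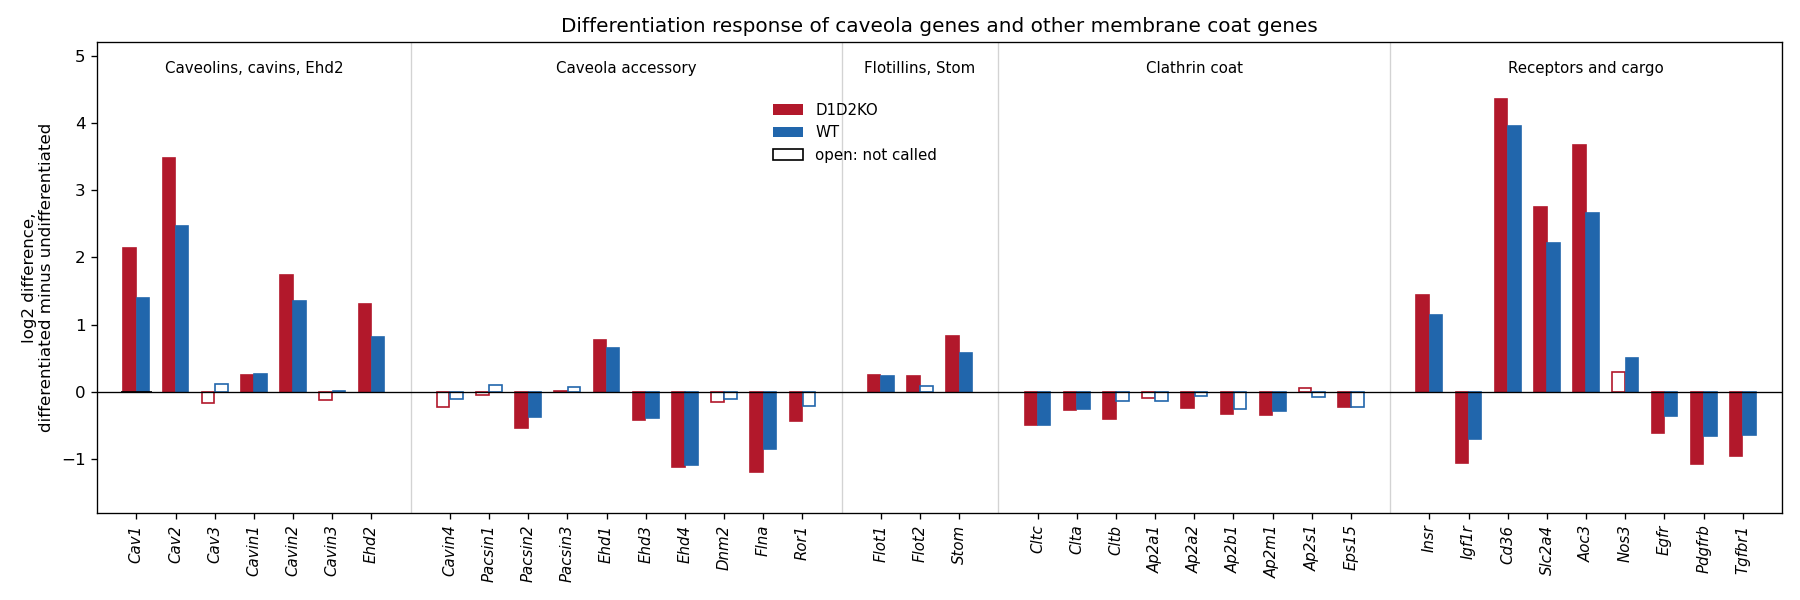
Differentiated minus undifferentiated log2 differences of each gene in 5 lists, in D1D2KO and WT cells, with filled bars for calls. Cav1, Cav2 and Cavin2 rise above every flotillin and accessory gene in each genotype, Ehd2 in WT cells (0.81) lies near Ehd1 (0.65) and Stom (0.58), and the clathrin coat genes lie between -0.50 and 0.054.

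Receptors and other membrane proteins reported at caveolae split in direction. Of 9 measured, 4 rose and 4 fell in D1D2KO cells, beside 15.4% and 21.2% of all genes. In WT cells 5 rose and 4 fell, beside 14.7% and 19.4% of all genes. The fatty acid receptor Cd36 rose by 4.36 in D1D2KO and 3.96 in WT cells, the insulin-responsive glucose transporter Slc2a4 by 2.75 and 2.21, and the insulin receptor Insr by 1.44 and 1.15. The growth factor receptors Pdgfrb (-1.07 in D1D2KO and -0.66 in WT cells), Igf1r (-1.05 and -0.70), Tgfbr1 (-0.95 and -0.64) and Egfr (-0.60 and -0.36) fell. The endothelial nitric oxide synthase Nos3 rose in WT cells (0.51) and had 0.29 in D1D2KO cells. Its log2 signal, 4.54 to 5.35 in WT and 4.80 to 5.37 in D1D2KO samples, was about as low as that of Cav3. Without detection calls it is not known whether this signal exceeds background. Aoc3, an amine oxidase of the adipocyte surface, was 9.73, 9.72 and 9.47 in differentiated D1D2KO and 9.38, 9.17 and 9.40 in differentiated WT samples. In undifferentiated samples it was 5.86, 5.96 and 6.06 in D1D2KO and 6.66, 6.60 and 6.68 in WT. It was thus lower before and higher after differentiation in D1D2KO cells, like Cav2, with a difference in response of 1.01 (SE 0.13, limma adjusted p = 0.000845). Endothelial markers, of another caveola-rich cell type, were low, with a mean log2 signal over 9 genes of 4.86 to 4.93 in differentiated D1D2KO, 4.73 to 4.88 in differentiated WT, 5.13 to 5.18 in undifferentiated D1D2KO and 5.01 to 5.06 in undifferentiated WT samples. On differentiation 2 of 9 fell in D1D2KO cells, and 1 rose and 3 fell in WT cells, beside the same shares of all genes.

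Among themselves, Cav1, Cav2, Cavin2 and Ehd2 had Pearson correlations of 0.955 to 0.989 over the 12 samples, which share the 4 groups and so reflect mainly the states. Outside the 7 genes, those most like Cav2 over the 12 samples were Slc25a5 (r = 0.999), an ADP/ATP carrier of mitochondria, Pfkfb3 (0.999), a regulator of glycolysis, and Prkar2b (0.998), a regulatory subunit of protein kinase A. For Cav1 they were Fmo1 (0.997), Nipsnap2 (0.997) and Ndrg2 (0.996). For Cavin2 they were the carboxylase subunit gene Pccb (0.995), the fatty acid dehydrogenase gene Acadvl (0.994) and Afg1l (0.993), and for Ehd2 they were Mrpl16, Rab3d and Ero1a (0.989, 0.989 and 0.988).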

How the data were processed

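The deposited table held 35556 probe sets in 12 samples. Its values, 1.15 to 14.17, were taken as log2 array signals already normalized by the authors, because a natural log of a 16-bit scanner reading cannot pass 11.09; the steps behind them are not given in the sources used here. Column medians were 5.61 to 5.69. Sample titles gave the group and replicate number. The platform annotation assigned 21789 probe sets to a single gene, and for 999 genes with several the one with the highest mean was kept, which left 19938 genes without a filter on signal. All samples entered 1 model of 4 group means in limma 3.58.1 (R 4.3.3; lmFit and eBayes, two-sided), tested on simulated data, with 5 contrasts and Benjamini-Hochberg adjustment over all genes; the number of arrays limits precision.

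The members and the lists were chosen with earlier results of these data known. The text names all members and any gene of the caveola, flotillin, clathrin and cargo lists. It also names the targeted genes and the 3 genes most correlated with each member whose group means span at least 0.5. Chromosome neighbours fall outside that rule: they were taken by position, the 2 nearest measured protein-coding genes on each side, and those named were chosen after their values were seen. In each of the clathrin, cargo and adipocyte lists, 1 of 10 genes is not analysed here. Alternatives were 10 settings, among them array centring, quantile normalization, a signal filter, array weights and replicate blocks, and 12 fits that each left out 1 sample. Replicate numbers pair samples where every equal-numbered correlation of deviations exceeds 0.1, which held between differentiated and undifferentiated D1D2KO cells alone (0.101 to 0.176, against -0.147 to 0.0522 for unequal numbers). Promoter sequences are RefSeq's on GRCm38.p6.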

Additional observations from a re-analysis of the deposited data

Results flagged for a closer look

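The response of Cav2 to differentiation differed between the genotypes by 1.01 on the log2 scale (SE 0.13, limma adjusted p = 0.000866), tested as the difference between the D1D2KO and WT responses. Its genotype difference had opposite signs in the states, 0.56 in differentiated and -0.45 in undifferentiated cells. In each state the samples of D1D2KO and WT did not overlap, nor did those of 30.9% and 39.3% of all genes. Other genes crossed in this way without overlap, among them Aoc3. Slc25a5, Pfkfb3 and Prkar2b did so too, but they were picked for their correlation with Cav2 over these samples, so a like pattern follows from the choice. The share of all genes that cross was not determined. Of the 9 adipocyte markers, 2 were called lower in undifferentiated and 6 higher in differentiated D1D2KO cells, beside 3.62% and 6.25% of all genes. The groups hold 3 samples each, too few for a test of single outlying samples.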

How the results depend on the processing

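Of 7 genes, the count called on differentiation was 4 to 5 in D1D2KO and in WT cells when 1 sample was left out, and 5 under the other settings except for 4 with the replicate block within genotype in D1D2KO cells, where Cavin1 was lost and no other call of the 7 genes changed. The count of genotype calls in differentiated cells, 2, became 4 with quantile normalization, genes above the median signal or array weights, 1 with the compared groups alone, and 1 to 4 when 1 sample was left out. In undifferentiated cells the count, 1, became 4 with the compared groups alone or array weights and 0 to 3 when 1 sample was left out. For the difference in response the count, 1, became 2 with genes above the median signal or trended and robust variance, 3 with array weights, and 1 to 3 when 1 sample was left out. The gained calls are Cav1, Cavin2, Cavin3 or Ehd2, each in its direction of the main fit. The replicate block over all 12 samples left the counts of the 5 comparisons at 5, 5, 2, 1 and 1.

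Signs turned only for small differences that were not called: Cavin3 on WT differentiation (-0.045 with quantile normalization, -0.051 with array weights, -0.095 to 0.11 without 1 sample), Cavin1 in differentiated (0.050 with quantile normalization, -0.11 to 0.030 without 1 sample) and undifferentiated cells (0.082 with quantile normalization, -0.048 to 0.016 without 1 sample), Cavin2 in undifferentiated cells (-0.0086 with centred arrays, -0.067 to 0.058 without 1 sample), Ehd2 in differentiated cells (-0.016 to 0.28 without 1 sample) and Cavin1 in the difference in response (-0.084 to 0.052 without 1 sample). The causes were not tested. Over all genes the counts called were 2726 in differentiated cells (1184 to 3070 under other settings), 1600 in undifferentiated cells (834 to 4224, and 339 without WT undifferentiated replicate 2) and 291 for the difference in response (254 to 604, and 159 without WT undifferentiated replicate 1). These counts differ in the number tested: 9969 for genes above the median signal, 21789 for all probe sets and 19938 otherwise. Signals near background cannot be told from it without detection calls, which limits Cav3 and Nos3.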

Other observations

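The gene that follows Cavin2 on chromosome 1 among the measured protein-coding genes is Nabp1, which encodes a single-stranded DNA binding protein. Its log2 signal was 11.12 to 11.27 in differentiated and 6.82 to 7.17 in undifferentiated D1D2KO samples, and 10.90 to 11.18 in differentiated and 7.06 to 7.36 in undifferentiated WT samples. It rose by 4.22 in D1D2KO cells (SE 0.11) and by 3.83 in WT cells (SE 0.11), more than Cavin2 itself, while the gene before Cavin2, Tmeff2, had -1.69 in D1D2KO and -1.41 in WT cells. The nearest measured genes of Ehd2, Nop53 and Bicra, had 0.11 and 0.067 in D1D2KO and 0.19 and 0.12 in WT cells and did not pass the test.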
